A study of Mus musculus with 36 samples.

Results

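The T cell genes described here are 32 genes that mark T cells or control their activation, read in mouse lung by their platform gene symbols on Affymetrix mouse genome arrays. Of the 32, 30 had a symbol in the platform annotation, among 18193 genes in all, and each gene was read by whichever of its probe sets had the highest mean level. The remaining pair, Lck and Tcf7, were not analysed here. A gene was tested if its log2 intensity was above 5 in at least 3 arrays, which 22 of the 30 passed. The 8 that did not pass were Cd4, Cd7, Cd40lg, Cd96, Foxp3, Il2ra, Pdcd1 and Ubash3a.

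The series models severe asthma with ovalbumin (OVA), a protein allergen, in 5 kinds of female mice on the C57BL/6 strain, whose ages are given only as matched. WT mice were wild type without engraftment, and KitWsh mice carried the sash mutation of Kit, lack mast cells and had no engraftment. KitWsh_MC and KitWsh_MCifngR mice were KitWsh mice with the engraftment labels MC and MCifngR, and KitWsh_MCigeR mice had the label MCigeR and the genotype label KitWsh/FcεRIγ-/-. The labels do not spell out these codes or name the engrafted cells' donors, so the KitWsh_MCigeR mice may differ from the others in recipient genotype too. OVA mice received 3 intraperitoneal injections of 50 µg OVA, in 0.1 ml of the buffer PBS (phosphate-buffered saline), on days 1, 4 and 7. From day 12 they were given 20 µg OVA in 30 µl PBS into the nose each week for 9 weeks, and PBS alone was given to controls at the same times. There were 4 arrays in the WT PBS group and in each OVA group, and 3 in every other PBS group. Nothing in the labels states that replicates came from different animals, and p-values therefore cover only the variation among these samples, which may be technical.

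T cells recognise antigen through a receptor whose signal is carried by the CD3 chains and the zeta chain encoded by Cd247. The coreceptors CD4 and CD8 divide helper from cytotoxic T cells, CD28 and ICOS give the costimulatory signal, and CTLA-4 and PD-1 restrain it. In allergic airways, helper T cells recruited to the lung drive eosinophil and mucus responses through their cytokines. Whole-lung RNA mixes many cell types, so a fall or rise in the number of T cells and in RNA per T cell cannot be told apart.

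Of the 36 arrays, 4 stood apart or went against their labels. The array of KitWsh_MCigeR PBS replicate 2 had a median correlation of 0.543 with the other arrays, against 0.882 to 0.971 for the rest. Its 3′ actin probe set lay 8.43 log2 units above the 5′ one, a sign of RNA degradation, against 1.17 to 6.23 elsewhere, and it is called the degraded array here. The array labelled WT OVA replicate 4 had a Kit level of 6.90, below the 9.86 to 10.97 of the other WT arrays, and a mean over Y-linked genes of 7.28. The arrays labelled KitWsh_MCifngR OVA replicates 2 and 3 had Y-linked means of 7.71 and 7.30, although all mice are labelled female. These last 3 arrays had the lowest mean over the tested T cell genes in their groups, at 5.49, 5.63 and 5.50. Results that rest on the 4 arrays are given for all 36 arrays, for 35 without the degraded one and for 32 without all 4. Correlations within groups were computed in the 35 only.

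The mean over the 36 arrays was above log2 5 for 17 of the 30 T cell genes. For 11 genes every group mean was above 5, and Cd3d, Il7r, Lef1, Ptprcap and Thy1 were above 5 in every array. Some values above 5 repeat exactly between arrays. Lef1 read 5.92 in every KitWsh_MC PBS array and in the degraded array, and Cd247 read 5.69 in KitWsh PBS replicates 2 and 3 and in the degraded array. Such repeats may mark a low end of the probe set, so a level above 5 need not be signal. Nearest to 5 on either side were Cd6, whose mean level was 5.11, and Tnfrsf4, whose mean level was 4.69. In 7 genes no array passed 5, and Pdcd1, which encodes PD-1, did so in 1 array. Transcripts of Cd3d, Cd3g, Cd2 and Thy1 were present in every group, with means between 5.54 and 9.16. The lowest of these means, Cd3g in KitWsh_MCigeR PBS lungs, was 6.76 without the degraded array. Levels of different genes come from different probes and are not set against each other here.

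**Figure D1:**
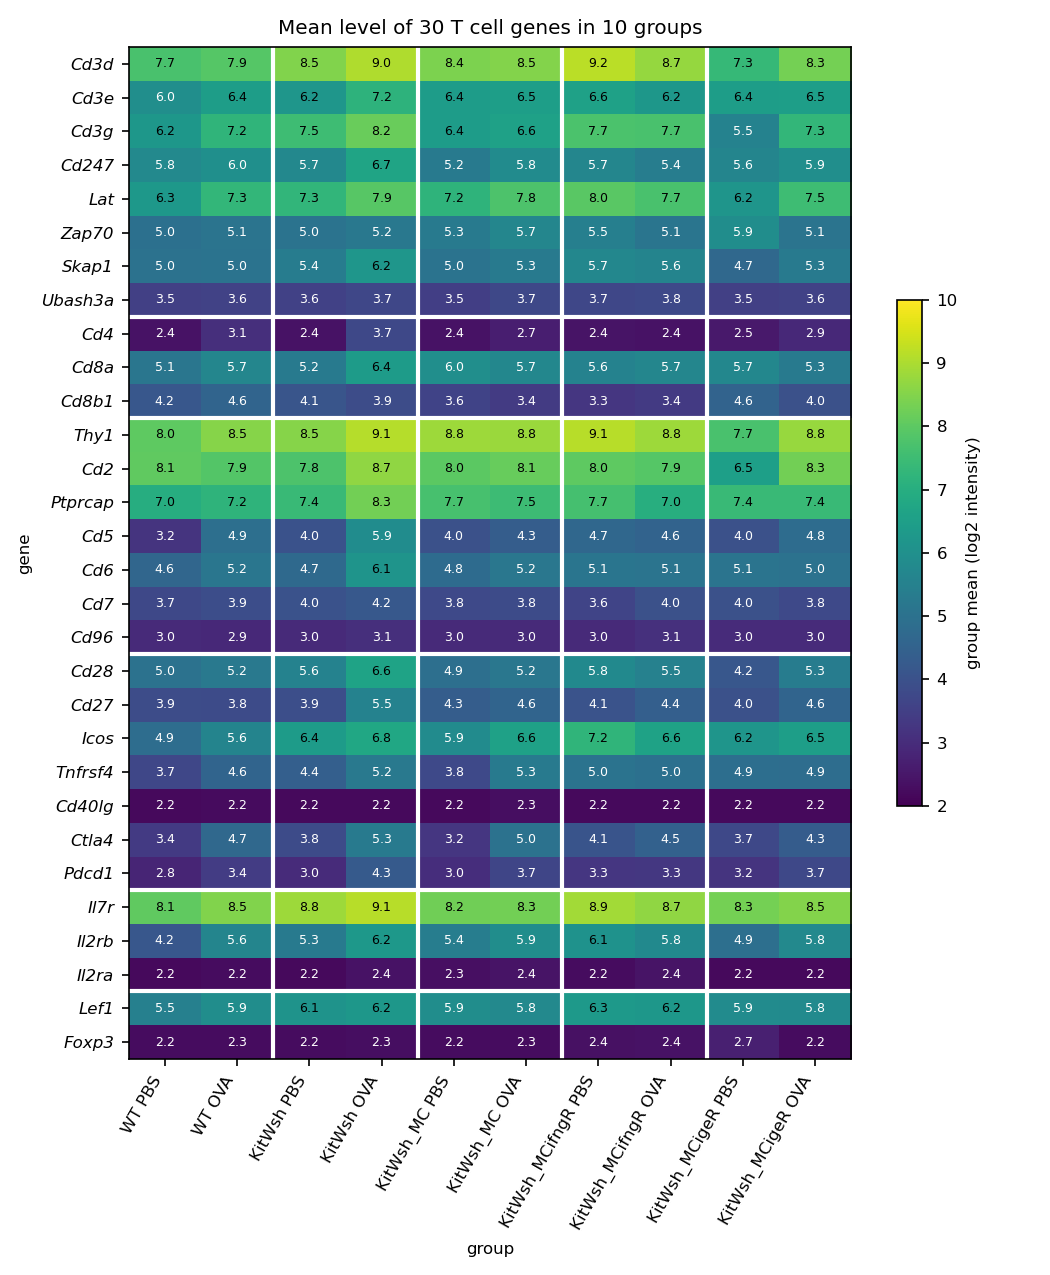
Group means (log2 intensity, colour and printed value) of 30 T cell genes in the 10 groups, ordered by role from the receptor complex at the top to transcription factors at the bottom. KitWsh OVA lungs have the highest mean of 14 of the 22 tested genes, and Cd40lg, Il2ra and Foxp3 stay under log2 3 in every group.

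KitWsh mice given OVA had the highest group mean for 14 of the 22 tested genes, and WT mice given PBS had the lowest for 11. Averaged over the 22 genes, WT lungs had a level of 5.48 ± 0.15 (SD, n = 4) after PBS and 6.04 ± 0.47 (SD, n = 4) after OVA. KitWsh lungs had 5.99 ± 0.09 (SD, n = 3) after PBS and 6.81 ± 0.47 (SD, n = 4) after OVA, and their arrays did not overlap. KitWsh_MC lungs had 5.84 ± 0.10 (SD, n = 3) after PBS and 6.18 ± 0.29 (SD, n = 4) after OVA. These averages describe the genes that passed the filter and carry no test. KitWsh_MCifngR lungs were already at 6.33 ± 0.16 (SD, n = 3) after PBS and had 6.16 ± 0.77 (SD, n = 4) after OVA. KitWsh_MCigeR lungs had 5.67 ± 0.75 (SD, n = 3) after PBS, or 5.88 without the degraded array, and 6.15 ± 0.25 (SD, n = 4) after OVA.

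The receptor complex was represented by Cd3e, the CD3 epsilon chain. In WT lungs Cd3e read 5.91, 5.31, 6.17 and 6.43 after PBS and 7.03, 6.14, 6.32 and 6.25 after OVA. In KitWsh lungs Cd3e read 6.27, 6.24 and 6.10 after PBS and 6.82, 7.87, 6.30 and 7.70 after OVA. Every KitWsh OVA array lay above every KitWsh PBS array, while the WT groups overlapped. In KitWsh_MC lungs Cd3e read 6.44, 6.49 and 6.32 after PBS and 6.27, 6.99, 6.09 and 6.63 after OVA. In KitWsh_MCifngR lungs Cd3e read 6.69, 6.26 and 6.82 after PBS and 6.59, 5.81, 5.54 and 7.03 after OVA. In KitWsh_MCigeR lungs Cd3e read 6.98, 7.57 and 4.78 after PBS and 7.07, 6.26, 6.32 and 6.32 after OVA. The groups overlapped in these 3 kinds, and in the last the PBS arrays spanned the OVA arrays on both sides. The log2 difference of Cd3e between OVA and PBS lungs was 0.97 ± 0.45 (SE) in KitWsh mice, with an adjusted p of 0.35 by limma, and was not called. The difference averaged over the 5 kinds was 0.25 ± 0.20 (SE), with an adjusted p of 0.402.

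The other receptor chains were not called averaged over the 5 kinds either. The average difference was 0.71 ± 0.30 (SE) for Cd3g, with an adjusted p of 0.0988, and 0.27 ± 0.25 (SE) for Cd3d, with an adjusted p of 0.465. Cd247 was higher in OVA lungs without overlap in KitWsh and in KitWsh_MC mice, and Cd3g in neither. The KitWsh PBS arrays read 5.80, 5.69 and 5.69 for Cd247, and 5.69 is its repeated value. Zap70, the kinase recruited to the receptor, stayed between 4.91 and 5.91 in all but 2 arrays. Those were KitWsh_MC OVA replicate 2 at 7.19 and KitWsh_MCigeR PBS replicate 2 at 7.29, which also had the largest differences between 3′ and 5′ actin, 6.23 and 8.43. Whether RNA quality sets the Zap70 value was not tested. Skap1, an adaptor of the same pathway, ranged from 3.54 to 6.92 with its highest group mean, 6.21 ± 0.63 (SD, n = 4), in KitWsh OVA lungs.

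Among the coreceptors, the Cd4 probe set stayed low and the Cd8a probe set did not. In WT lungs Cd4 read 2.40, 2.36, 2.40 and 2.42 after PBS and 4.15, 2.93, 2.86 and 2.41 after OVA. In KitWsh lungs Cd4 read 2.36, 2.45 and 2.36 after PBS and 2.45, 4.62, 3.19 and 4.65 after OVA. In KitWsh_MC lungs Cd4 read 2.45, 2.40 and 2.36 after PBS and 2.74, 3.03, 2.45 and 2.45 after OVA. The arrays above 4 were WT OVA replicate 1 and KitWsh OVA replicates 2 and 4, and no array reached 5. In KitWsh_MCifngR lungs Cd4 read 2.36, 2.45 and 2.45 after PBS and 2.45, 2.40, 2.31 and 2.45 after OVA. In KitWsh_MCigeR lungs Cd4 read 2.83, 2.45 and 2.36 after PBS and 3.77, 3.00, 2.40 and 2.46 after OVA. Cd4 was therefore not tested, and its level says nothing on whether helper T cells were present.

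Cd8a, the alpha chain of CD8, did not overlap between OVA and PBS arrays in the kinds without engraftment, but was not called in either with 36 arrays. In WT lungs Cd8a read 5.16, 4.94, 5.07 and 5.34 after PBS and 6.13, 5.64, 5.47 and 5.43 after OVA, and the groups did not overlap. In KitWsh lungs Cd8a read 5.23, 5.46 and 5.06 after PBS and 6.47, 6.65, 5.82 and 6.57 after OVA, again without overlap. In KitWsh_MC lungs Cd8a read 6.24, 5.70 and 5.93 after PBS and 5.21, 5.96, 5.41 and 6.18 after OVA. The last 2 groups overlapped, and the OVA mean was the lower. In KitWsh_MCifngR lungs Cd8a read 5.72, 5.52 and 5.44 after PBS and 5.89, 5.19, 4.96 and 6.68 after OVA. In KitWsh_MCigeR lungs Cd8a read 5.53, 6.84 and 4.70 after PBS and 5.07, 5.45, 5.18 and 5.55 after OVA. The OVA arrays of these engrafted kinds lay within or across the range of their PBS arrays. The log2 difference was 0.54 ± 0.33 (SE) in WT mice, with an adjusted p of 0.479. It was 1.13 ± 0.36 (SE) in KitWsh mice, with an adjusted p of 0.139, and -0.27 ± 0.36 (SE) in KitWsh_MC mice, with an adjusted p of 0.763. Without the degraded array, the KitWsh difference was called, with an adjusted p of 0.024, and the WT difference was not, with an adjusted p of 0.194. Another Cd8a probe set of mean level 5.61 had an average difference of 0.16 over the 5 kinds, against 0.34 for the one used, as plain mean differences over 35 arrays. In the 35 arrays the probe set used had a KitWsh_MC response lower than the KitWsh response by 1.40 on the log2 scale. Its adjusted p was 0.0441, where 1.35% of all genes were called lower. With all 36 arrays no member was called in that test of the difference. Cd8b1, the beta chain, was above 5 in 3 arrays only and was not called in any comparison between OVA and PBS lungs.

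Few members passed the test within a kind of mouse. In WT mice 2 of 22 rose, Cd5 and Il2rb, where 0.535% of the 11599 tested genes were called higher. In KitWsh_MC mice 2 rose, Ctla4 and Tnfrsf4, where 3.88% of all tested genes were called higher. In KitWsh mice limma called none of the 22, where 0.621% of all genes were called in either direction, although 21 had a higher mean after OVA and 10 had an unadjusted p under 0.05. The median log2 difference of the members was 0.46 in WT, 0.87 in KitWsh and 0.24 in KitWsh_MC mice, against -0.03, -0.10 and 0.01 over all tested genes. With no filter on low values the medians over all 30 genes were 0.41, 0.74 and 0.20. No test of these medians was made.

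Separation of the arrays was also counted without a model. In WT mice 4 of 22 members were higher in every OVA array than in every PBS array, namely Cd5, Cd8a, Ctla4 and Il2rb, where 7.6% of all tested genes were. In KitWsh mice 8 were, Cd3e, Cd247, Cd5, Cd6, Cd8a, Cd27, Cd28 and Ptprcap, where 7.53% of all genes were. In KitWsh_MC mice 6 were, Cd247, Cd5, Cd6, Ctla4, Icos and Tnfrsf4, where 12.6% of all genes were. Cd5 was the member present in each of these 3 sets. In KitWsh_MCifngR and KitWsh_MCigeR mice no member was higher without overlap, where 8.1% and 7.2% of all genes were. Without the degraded array too few PBS arrays were left in KitWsh_MCigeR mice for such a count to be read.

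Ctla4, the inhibitory receptor that competes with CD28 for its ligands, had the largest response of the tested members averaged over the 5 kinds. In WT lungs Ctla4 read 3.28, 2.84, 3.52 and 3.77 after PBS and 5.42, 4.52, 4.78 and 4.11 after OVA. In KitWsh lungs Ctla4 read 4.25, 3.47 and 3.81 after PBS and 5.56, 5.63, 4.11 and 5.74 after OVA. All 4 WT OVA arrays lay above the WT PBS arrays, and in KitWsh lungs replicate 3 of the OVA group was the exception. In KitWsh_MC lungs Ctla4 read 3.14, 3.33 and 3.28 after PBS and 4.36, 4.82, 5.68 and 5.13 after OVA. In KitWsh_MCifngR lungs Ctla4 read 4.10, 3.85 and 4.27 after PBS and 3.90, 4.29, 4.07 and 5.70 after OVA. In KitWsh_MCigeR lungs Ctla4 read 4.07, 3.80 and 3.28 after PBS and 4.93, 3.89, 4.21 and 4.31 after OVA. The KitWsh_MC groups were separated by more than 1 log2 unit, while the last 2 kinds overlapped. Ctla4 rose by 1.75 ± 0.40 (SE) on the log2 scale in KitWsh_MC mice, with an adjusted p of 0.00718. Averaged over the 5 kinds it rose by 1.11 ± 0.17 (SE), with an adjusted p of 1.36e-04. Both calls rest on low intensities, since each PBS array was under log2 5, and the mean of the KitWsh_MC OVA arrays was 5.00, so no fold is given. Ctla4 thus passed the filter for low values through OVA arrays alone.

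Cd5, a receptor on T cells and some B cells that dampens antigen receptor signals, was higher after OVA without overlap in WT, KitWsh and KitWsh_MC lungs. In WT lungs Cd5 read 3.09, 3.06, 3.18 and 3.52 after PBS and 5.77, 4.77, 5.15 and 4.01 after OVA. In KitWsh lungs Cd5 read 4.21, 4.09 and 3.78 after PBS and 5.31, 6.36, 5.51 and 6.33 after OVA. The WT PBS arrays were among the lowest of the series, and the KitWsh OVA arrays all passed 5. In KitWsh_MC lungs Cd5 read 3.89, 4.10 and 3.96 after PBS and 4.11, 4.35, 4.58 and 4.38 after OVA. In KitWsh_MCifngR lungs Cd5 read 4.55, 4.40 and 5.03 after PBS and 4.57, 3.96, 3.75 and 5.96 after OVA. In KitWsh_MCigeR lungs Cd5 read 5.17, 4.12 and 2.68 after PBS and 5.69, 4.74, 4.12 and 4.81 after OVA. The KitWsh_MC groups were only just apart, and KitWsh_MCifngR OVA replicate 4 stood far above the other arrays of its group. Cd5 rose by 1.71 ± 0.43 (SE) in WT mice, with an adjusted p of 0.0404, from PBS arrays that were all under log2 5 to a mean of 4.93. The KitWsh difference was as large, 1.85 ± 0.47 (SE), but had an adjusted p of 0.0585. Averaged over the 5 kinds Cd5 rose by 0.94 ± 0.21 (SE), with an adjusted p of 0.00246.

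Il2rb, the beta chain of the interleukin 2 and interleukin 15 receptors, was lowest in WT PBS lungs. In WT lungs Il2rb read 4.45, 3.80, 3.74 and 4.69 after PBS and 6.61, 5.47, 5.46 and 5.00 after OVA. In KitWsh lungs Il2rb read 5.28, 5.52 and 4.97 after PBS and 6.04, 6.80, 5.47 and 6.70 after OVA. The WT groups did not overlap, and in KitWsh lungs OVA replicate 3 fell within the PBS range. In KitWsh_MC lungs Il2rb read 5.20, 5.49 and 5.47 after PBS and 5.82, 6.03, 5.46 and 6.43 after OVA. In KitWsh_MCifngR lungs Il2rb read 5.66, 6.36 and 6.25 after PBS and 5.49, 5.48, 5.29 and 6.97 after OVA. In KitWsh_MCigeR lungs Il2rb read 5.57, 4.88 and 4.34 after PBS and 6.43, 5.46, 5.33 and 5.84 after OVA. Groups overlapped in all 3 engrafted kinds. The gene rose by 1.46 ± 0.37 (SE) in WT mice, with an adjusted p of 0.0404. As every WT PBS array was under log2 5, the rise is written against 5, which makes it at least 1.55-fold. Averaged over the 5 kinds it rose by 0.71 ± 0.18 (SE), with an adjusted p of 0.00625. The other probe set of Il2rb was low, with a mean of 3.10.

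Tnfrsf4 encodes OX40, a costimulatory receptor of activated T cells. In WT lungs Tnfrsf4 read 3.52, 3.29, 4.17 and 3.82 after PBS and 4.70, 4.92, 4.56 and 4.15 after OVA. In KitWsh lungs Tnfrsf4 read 4.47, 4.32 and 4.48 after PBS and 5.24, 5.24, 4.26 and 6.19 after OVA. In both kinds the highest arrays were OVA arrays, with overlap at the low end. In KitWsh_MC lungs Tnfrsf4 read 3.52, 4.25 and 3.54 after PBS and 4.81, 6.40, 4.47 and 5.52 after OVA. In KitWsh_MCifngR lungs Tnfrsf4 read 5.16, 4.72 and 5.23 after PBS and 4.90, 4.33, 4.55 and 6.05 after OVA. In KitWsh_MCigeR lungs Tnfrsf4 read 5.27, 5.34 and 4.09 after PBS and 5.52, 4.71, 4.56 and 4.70 after OVA. The KitWsh_MC groups did not overlap, and the last 2 kinds each had 2 PBS arrays above 5. Tnfrsf4 rose by 1.53 ± 0.43 (SE) in KitWsh_MC mice, with an adjusted p of 0.0274, which is at least 1.23-fold against log2 5. Without KitWsh_MC OVA replicate 2, whose actin difference was 6.23, it was 1.16 and no longer called, with an adjusted p of 0.126. The call was also lost without KitWsh_MC OVA replicate 4 and without KitWsh_MC PBS replicate 1 or 3. Averaged over the 5 kinds it rose by 0.62 ± 0.19 (SE), with an adjusted p of 0.0224.

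Lat is the membrane adaptor that spreads the receptor signal. In WT lungs Lat read 6.50, 5.51, 6.33 and 6.71 after PBS and 8.00, 7.21, 7.32 and 6.64 after OVA. In KitWsh lungs Lat read 7.11, 7.47 and 7.19 after PBS and 8.04, 8.09, 7.20 and 8.32 after OVA. OVA arrays were the highest in both kinds, and the groups overlapped in each. In KitWsh_MC lungs Lat read 7.68, 6.99 and 6.90 after PBS and 7.65, 8.43, 7.07 and 7.93 after OVA. In KitWsh_MCifngR lungs Lat read 7.95, 7.63 and 8.27 after PBS and 7.90, 7.22, 6.95 and 8.78 after OVA. In KitWsh_MCigeR lungs Lat read 7.97, 4.88 and 5.67 after PBS and 8.06, 7.45, 6.92 and 7.64 after OVA. KitWsh_MCigeR PBS replicate 2, the degraded array, held the lowest Lat value of the series. Lat rose by 0.67 ± 0.22 (SE) averaged over the 5 kinds, with an adjusted p of 0.0329. That call was lost, with adjusted p values up to 0.0574, with no filter on low values or when any of 9 arrays was left out. The arrays were WT OVA replicate 1, WT PBS replicate 2, KitWsh OVA replicate 4, KitWsh PBS replicate 1, KitWsh_MC PBS replicates 2 and 3, KitWsh_MCifngR OVA replicate 4, KitWsh_MCifngR PBS replicate 2 and KitWsh_MCigeR OVA replicate 1.

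**Figure D2:**
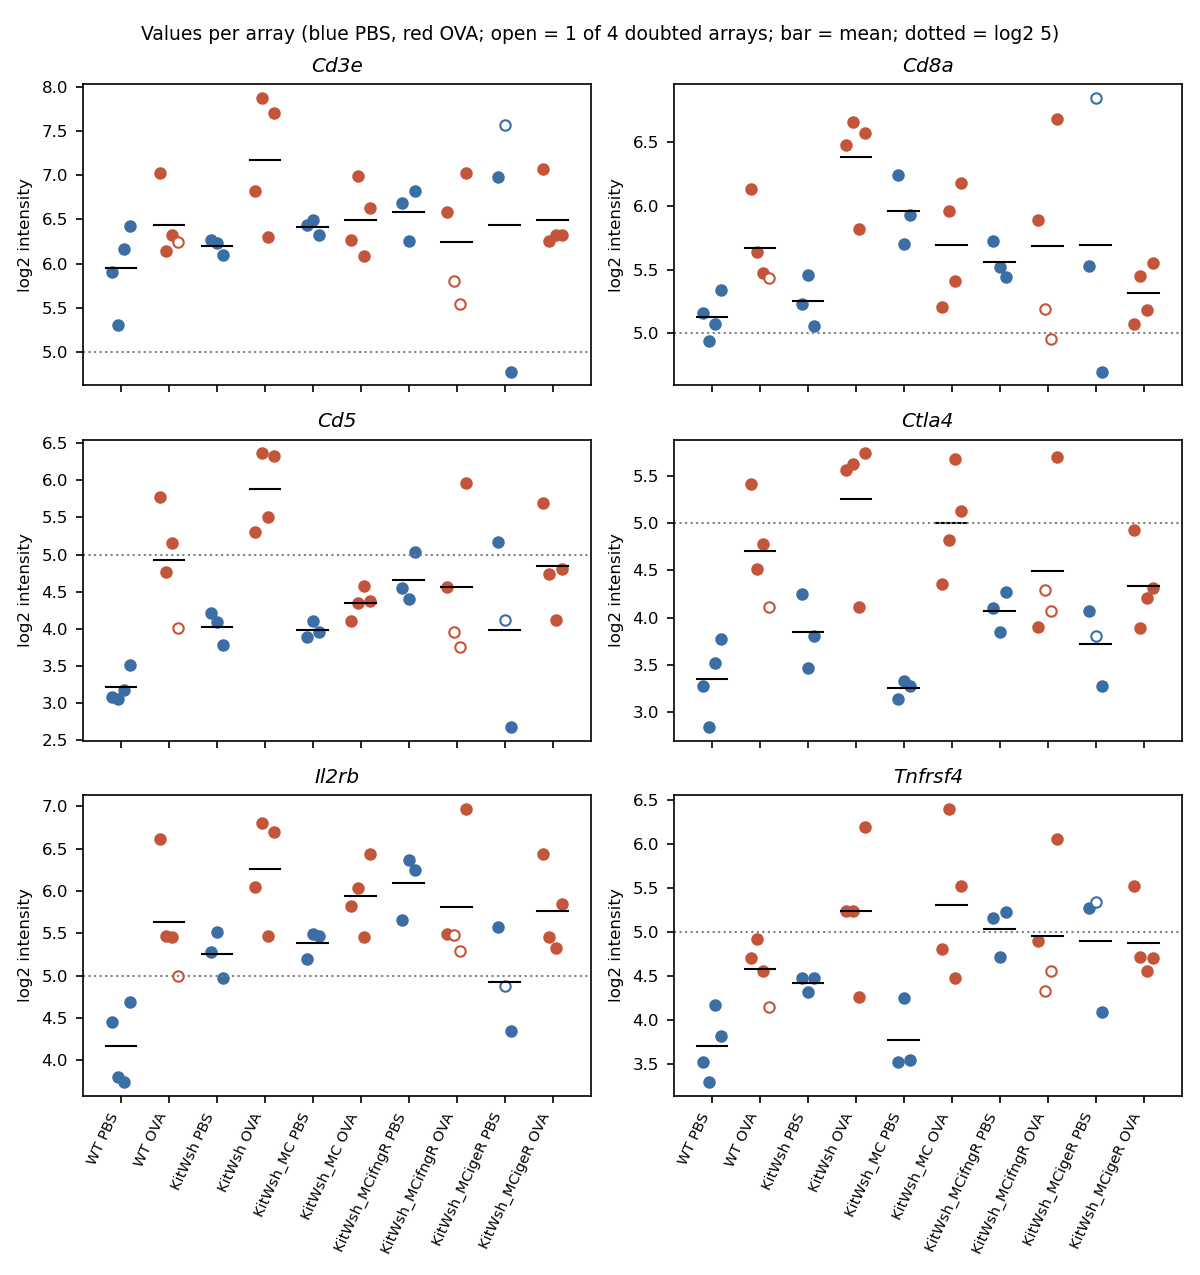
Log2 intensity of 6 T cell genes in every array of the 10 groups, with blue points for PBS, red points for OVA, open points for the 4 arrays that stand apart or go against their labels, black bars for group means and a dotted line at log2 5. Ctla4 and Tnfrsf4 separate without overlap in KitWsh_MC lungs, and Cd8a and Cd5 in WT and KitWsh lungs.

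Promoters were read from RefSeq's annotation of the build GRCm38.p6, which held 18 of the 30 measured members. Il2rb, a called member, was not among them. The 250 bases before the transcription start are shown for Ctla4 and Cd5, whose average rise was called under every setting tried, and for Tnfrsf4. Il2rb was also called under every setting but could not be shown, and Lat, with 1 match to the letters below, is not shown. Capitals mark the letters AGGAAG or, on the other strand, CTTCCT, which resemble the core of sites for ETS factors. Ctla4 lies at chr1:60908775-60909024 on the plus strand and has 1 match, Cd5 at chr19:10738975-10739224 on the minus strand with 2, and Tnfrsf4 at chr4:156013445-156013694 on the plus strand with 0.
Ctla4: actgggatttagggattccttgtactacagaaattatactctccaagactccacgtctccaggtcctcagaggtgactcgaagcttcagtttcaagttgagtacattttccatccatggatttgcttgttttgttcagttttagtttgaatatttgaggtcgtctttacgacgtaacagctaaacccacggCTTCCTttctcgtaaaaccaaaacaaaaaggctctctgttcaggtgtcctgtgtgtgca
Cd5: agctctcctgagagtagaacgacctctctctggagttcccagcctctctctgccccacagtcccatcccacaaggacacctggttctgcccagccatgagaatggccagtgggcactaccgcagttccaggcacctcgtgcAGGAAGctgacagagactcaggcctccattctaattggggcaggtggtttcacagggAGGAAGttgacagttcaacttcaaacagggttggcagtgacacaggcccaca
Tnfrsf4: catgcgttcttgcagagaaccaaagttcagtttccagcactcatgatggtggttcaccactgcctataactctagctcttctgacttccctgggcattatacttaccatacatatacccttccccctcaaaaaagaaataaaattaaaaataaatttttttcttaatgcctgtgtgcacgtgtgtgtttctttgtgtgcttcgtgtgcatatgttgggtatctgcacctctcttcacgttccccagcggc
These letters were in 10 of the 18 member promoters, or 55.6%, against 29.2% of all 27025 promoters of the same length. The letters GGAAAA, which resemble NFAT sites and share bases with the former, were in 4 of 18, or 22.2%, against 20.6% of all. TGANTCA, an AP-1 type sequence, was in 0 of 18, against 6.87% of all. Another ETS-type sequence, CCGGAAG, was also in 0 of 18, against 7.05% of all, and with a share this low 0 of 18 shows no direction. The core GGAAG, contained in both ETS-like sequences, was in 16 of 18, or 88.9%, against 63.6% of all. In all 14 motifs were searched on both strands, chosen with the expression values known, and a match describes letters and not a binding site.

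Averaged over the 5 kinds, the challenge raised 5 of the 22 tested members, namely Ctla4, Cd5, Il2rb, Tnfrsf4 and Lat, where 8.79% of all tested genes were called higher. None fell. The median difference of the 22 was 0.36, against 0.06 over all tested genes, and 0.32 over all 30 genes with no filter. Cd27, a costimulatory receptor of the same family as OX40, joined them without the degraded array, making 6 where 12.2% of all genes were called higher. Without all 4 doubted arrays 16 of 22 were called higher, where 14.8% of all genes were, and the median was 0.52. The 6 then not called were Cd3d, Cd8b1, Il7r, Lef1, Ptprcap and Zap70. The CD3 epsilon and gamma chains were among the 16, so the count of called T cell genes turned on the 3 arrays that go against their labels. As these are OVA arrays with the lowest T cell means of their groups, removing them raises the mean difference by construction. It also leaves only replicates 1 and 4 in the KitWsh_MCifngR OVA group. The count reached 11 when KitWsh_MCigeR PBS replicate 1 alone was left out, a fit for which the share of all genes is not given.

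**Figure D3:**
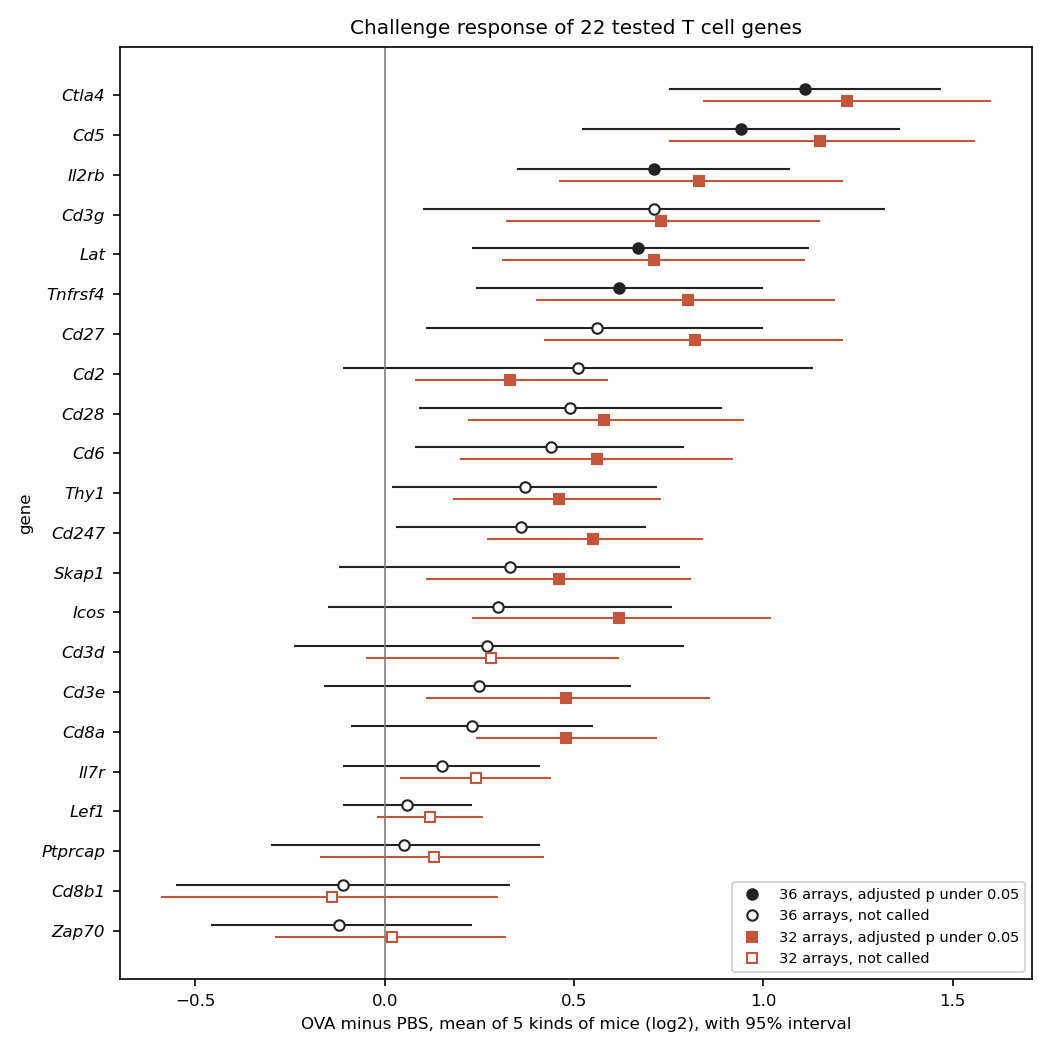
Log2 difference between OVA and PBS lungs averaged over the 5 kinds, with its 95% interval, for the 22 tested T cell genes, in all 36 arrays (black) and in the 32 arrays left after 4 were removed (red); filled points were called at an adjusted p under 0.05. Filled points number 5 with 36 arrays and 16 with 32 arrays, and Ctla4 has the largest difference in either.

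The remaining surface molecules were not called averaged over the 5 kinds with 36 arrays. Cd2, an adhesion molecule of T cells, had a mean of 8.66 ± 0.53 (SD, n = 4) in KitWsh OVA lungs and 7.75 ± 0.34 (SD, n = 3) in KitWsh PBS lungs. Its lowest value, 3.02, was that of the degraded array, and the next lowest was 7.00. Thy1, a surface glycoprotein of mouse T cells, was as high in KitWsh_MCifngR PBS lungs, at 9.14 ± 0.17 (SD, n = 3), as in KitWsh OVA lungs, at 9.12 ± 0.41 (SD, n = 4). Icos, a costimulatory receptor, ran from 4.87 ± 0.48 (SD, n = 4) in WT PBS lungs to 7.24 ± 0.13 (SD, n = 3) in KitWsh_MCifngR PBS lungs, both PBS groups. Cd6, a receptor related to CD5, had a mean of 6.14 ± 0.84 (SD, n = 4) in KitWsh OVA and 4.72 ± 0.05 (SD, n = 3) in KitWsh PBS lungs. The average differences of Cd27, Cd28 and Cd6 over the 5 kinds were 0.56, 0.49 and 0.44, with adjusted p values of 0.0762, 0.0852 and 0.0797. Another Cd28 probe set, of mean level 5.27 against 5.36, had a larger difference. It was 0.76 against 0.42 for the one used, as plain mean differences over 35 arrays, and was not tested. Those of Lef1, a transcription factor of naive T cells, and Ptprcap, which binds CD45, were 0.06 and 0.05, with adjusted p values of 0.63 and 0.853. For Il7r the probe set used and the other one differed in sign, at 0.09 and -0.20 as plain mean differences over 35 arrays, and neither direction is claimed.

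Removal of the array labelled WT OVA replicate 4, with the other 3, also changed the WT result. That array had the lowest T cell mean of its group, so its removal raises the WT mean difference by construction. In the 32 arrays left 7 members rose in WT mice, where 9.88% of all genes were called higher. They were Cd5 by 2.02, Il2rb by 1.67, Ctla4 by 1.55, Cd3g by 1.5, Lat by 1.25, Icos by 1.16 and Thy1 by 0.81 on the log2 scale. In KitWsh mice 7 members rose, where 2.47% of all genes were called higher. They were Cd5, Cd27, Cd6, Ctla4, Cd8a, Cd247 and Cd2, with differences from 0.90 to 1.85. With only the degraded array left out, 3 rose in WT and 5 in KitWsh mice, where 3.97% and 1.4% of all genes were called higher. Conversely, no member was called in WT mice when any of WT OVA replicates 1, 2 and 3 or WT PBS replicates 1, 2 and 3 was left out of the 36. In KitWsh mice 1 was called without OVA replicate 1 and 2 without OVA replicate 3. The share of all genes is not given for these single removals, so the counts show only how far they move.

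Engraftment was compared between the OVA groups directly. Most T cell genes were lower in KitWsh_MC than in KitWsh lungs after OVA, 20 of 22 by their means, and 3 were called lower, where 3.4% of all tested genes were. Cd5 was lower by 1.53 ± 0.43 (SE) on the log2 scale, with an adjusted p of 0.0241, or at least 1.84-fold against log2 5. Cd28, the main costimulatory receptor, was lower by 1.45 ± 0.42 (SE), with an adjusted p of 0.0259. It had a mean of 5.18 ± 0.69 (SD, n = 4) in KitWsh_MC and 6.63 ± 0.50 (SD, n = 4) in KitWsh OVA lungs. Il7r, the receptor for the survival cytokine interleukin 7, was lower by 0.83 ± 0.26 (SE), with an adjusted p of 0.0455, at 8.30 ± 0.43 (SD, n = 4) against 9.13 ± 0.30 (SD, n = 4). The Il7r call was kept in 6 of 14 settings, and was lost with quantile normalization and with no filter on low values. The Cd5 and Cd28 calls were kept in 9 and 8 of 14, and that of Cd28 was lost with quantile normalization. Ctla4 and Tnfrsf4 differed little between these groups, with means of 5.00 and 5.30 in KitWsh_MC and 5.26 and 5.23 in KitWsh lungs.

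The median of the 22 in that comparison was -0.61, against -0.02 over all tested genes, and -0.51 over all 30 members with no filter. Other measures differed between the same arrays. The difference between 3′ and 5′ actin was 2.33, 6.23, 2.21 and 2.61 in KitWsh_MC OVA arrays and 2.62, 1.70, 1.29 and 1.35 in KitWsh OVA arrays. Pan-leukocyte genes were lower in 9 of 10 cases, with a median of -0.69, and their mean ran from 9.67 to 10.65 in KitWsh_MC and from 10.40 to 11.17 in KitWsh OVA arrays. The mean over epithelial and endothelial markers was 11.55 ± 0.45 (SD, n = 4) against 12.03 ± 0.18 (SD, n = 4), with 8 of 12 lower. No gene of these 2 lists was called lower with 36 arrays, and 5 of 10 and 4 of 12 were without the degraded array. The part of RNA quality and of other cell types in the lower T cell genes was not tested. Without the degraded array, which is in neither group, 6 were called lower, where 16.6% of all genes were. Cd3g, Cd6 and Lef1 were the added members. With 32 arrays 11 were called lower, where 17.9% were. No member was called without KitWsh_MC OVA replicate 1 or 2 or without KitWsh OVA replicate 2 or 4, and 1 was called without KitWsh OVA replicate 3. The share of all genes is not given for these fits. The PBS groups of the same kinds had no called member, where 1.2% of all genes were called in either direction, with a median of -0.06 and no unadjusted p under 0.05. The KitWsh OVA arrays serve in both this comparison and the one with WT.

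Against WT OVA lungs, 21 of 22 members had a higher mean in KitWsh OVA lungs and none was called, where 0.0604% of all tested genes were called higher. The median difference was 0.72, against 0.01 over all tested genes, and 0.65 over all 30 members with no filter. An unadjusted p under 0.05 was found for 11 members. B cell markers were higher in 10 of 10 cases, with a median of 1.22 and 7 unadjusted p values under 0.05, and natural killer and cytotoxic genes in 9 of 9, with a median of 0.51. None of either list was called, and their part in the T cell difference was not tested. Cd27 differed most, with 5.55 ± 0.33 (SD, n = 4) in KitWsh and 3.84 ± 0.44 (SD, n = 4) in WT OVA lungs. Its difference of 1.71 ± 0.46 (SE) had an adjusted p of 0.242 with 36 arrays, and it was called with 32 arrays, where 0.491% of all genes were called higher. Means also differed without allergen. In PBS lungs 19 of 22 were higher in KitWsh than in WT mice, and none was called, where 0.75% of all tested genes were called higher. The median was 0.51, against 0.10 over all tested genes, and 0.27 over all 30 members with no filter. Icos, by 1.51, and Lef1, by 0.65, were called without the degraded array, where 5.63% were. Lef1 read 5.92, its repeated value, in KitWsh PBS replicate 1.

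In KitWsh_MCifngR mice no member passed the test between OVA and PBS. The median difference was -0.17, or -0.07 over all 30 members with no filter, with 4 higher and 18 lower, and none with an unadjusted p under 0.05, where 0.155% of all genes were called in either direction. The PBS lungs of this kind were already high, with the highest group mean of all 10 groups for 5 of the 22 genes. The same 3 arrays had 3′ minus 5′ actin differences of 3.92, 3.60 and 4.19, above every other PBS array except the degraded one. Their mean over B cell markers, 7.85 ± 0.36 (SD, n = 3), was also the highest of the PBS groups, and the part of either in the T cell level was not tested. The OVA arrays of this kind were spread widely, and their means over the 22 genes were 6.36, 5.63, 5.50 and 7.17. The middle pair are the arrays with Y-linked signal. Without them and the other doubted arrays the median was 0.43, with 21 of 22 higher and none called, where 1.66% were called in either direction. The direction of this response therefore turned on those arrays, which held the lowest means of the OVA group. In OVA lungs, 6 members were then higher in KitWsh_MCifngR than in KitWsh_MC mice, where 27.5% of all genes were called higher, and with 36 arrays none was, where 10.4% were. Between KitWsh_MCigeR and KitWsh_MC OVA lungs no member was called or had an unadjusted p under 0.05, where 2.93% of all genes were called in either direction.

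In KitWsh_MCigeR mice no member was called, where 19% of all tested genes were called in either direction, and 7 had an unadjusted p under 0.05. The median was 0.45, against 0.38 over all genes. Without the degraded array the medians were 0.27 and 0.01, and no gene at all was called, with 0 members under an unadjusted p of 0.05. The PBS group then held 2 arrays whose means over the 22 genes were 6.53 and 5.22, further apart than any other group's PBS arrays. Leaving out PBS replicate 1 or 3 in its place keeps the degraded array as 1 of 2 controls. The share of all genes is not given for those fits, and no count is read from them. No call of a T cell gene in this kind is made here.

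Whether the response to OVA itself differed between kinds was tested as the difference of the differences. None of the 22 members was called by limma in any of the 4 such tests with 36 arrays. For KitWsh minus WT 1 member had an unadjusted p under 0.05, where 0.00862% of all genes were called. For KitWsh_MC minus KitWsh 2 had, with a median of -0.49, 17 of 22 responses lower, and 0.517% of all genes called. For KitWsh_MCifngR minus KitWsh_MC 2 had, where 0.0345% were called, and for KitWsh_MCigeR minus KitWsh_MC 2 had, where 0.293% were called. The calls in 1 kind and not in another are therefore not shown to differ. Cd8a alone passed, for KitWsh_MC minus KitWsh, and only in fits without the degraded array, which is in neither kind. With 36 arrays its adjusted p was 0.221. The 3′ minus 5′ actin differences were 3.02, 3.41 and 2.33 in KitWsh_MC PBS arrays and 1.74, 2.48 and 1.99 in KitWsh PBS arrays. The part of RNA quality in the Cd8a difference was not tested.

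The untested members were low in every group. Foxp3, the transcription factor of regulatory T cells, lay between 2.25 and 3.57. In WT lungs Foxp3 read 2.25, 2.25, 2.25 and 2.25 after PBS and 2.25, 2.25, 2.25 and 2.34 after OVA. In KitWsh lungs Foxp3 read 2.25, 2.25 and 2.25 after PBS and 2.25, 2.25, 2.25 and 2.40 after OVA. Most arrays sat at the 2.25 that marks the low end of this probe set. In KitWsh_MC lungs Foxp3 read 2.25, 2.26 and 2.25 after PBS and 2.25, 2.25, 2.25 and 2.35 after OVA. In KitWsh_MCifngR lungs Foxp3 read 2.30, 2.25 and 2.58 after PBS and 2.38, 2.25, 2.27 and 2.65 after OVA. In KitWsh_MCigeR lungs Foxp3 read 2.25, 3.57 and 2.25 after PBS and 2.25, 2.25, 2.25 and 2.25 after OVA. The highest value was that of the degraded array. Pdcd1 reached 4.26 ± 0.97 (SD, n = 4) in KitWsh OVA lungs from 2.99 ± 0.13 (SD, n = 3) after PBS. Cd40lg, the CD40 ligand of helper T cells, did not exceed 2.50, and Il2ra, the alpha chain of the interleukin 2 receptor, did not exceed 3.10. Cd7 ranged from 3.10 to 4.74, Cd96 from 2.83 to 3.43 and Ubash3a, a negative regulator of receptor signals, from 3.29 to 4.19.

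Other genes of T cell biology were followed in lists. Of 18 further receptor signalling genes, 10 were tested and 3 rose averaged over the 5 kinds, none falling, where 8.79% of all tested genes rose. They were Lax1, an inhibitory adaptor, by 0.83 ± 0.22 (SE), Malt1, a protease of the pathway to NF-κB, by 0.84 ± 0.25 (SE), and Lcp2, which encodes the adaptor SLP-76, by 0.63 ± 0.22 (SE). Of 16 activation and checkpoint genes, 10 were tested and 3 rose, Cd44 by 0.65 ± 0.14 (SE), Tnfrsf9 by 1.04 ± 0.25 (SE) and Havcr2 by 0.62 ± 0.16 (SE). Tnfrsf9, the costimulatory receptor 4-1BB, rose by 2.27 ± 0.56 (SE) in KitWsh_MC mice, with an adjusted p of 0.0125. Of 13 trafficking genes, 10 were tested and 1 rose, Selplg, a selectin ligand, by 0.60 ± 0.12 (SE), which is near that share of all genes. None of the 9 tested transcription factors was called, and none had an unadjusted p under 0.05. Gata3, the factor of type 2 helper cells, differed by 0.27 ± 0.15 (SE), with an adjusted p of 0.216. The median differences of these 4 lists lay between 0.19 and 0.29. Without the degraded array 3 signalling genes, 4 activation genes and 1 trafficking gene rose, where 12.2% of all genes did. No transcription factor was then called.

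The helper cytokines could hardly be read. Of 14 listed, 2 were tested, Csf2 and Ltb, and neither was called, with adjusted p values of 0.0884 and 0.0897. Il4, Il5, Il13, Il10, Ifng and Il17a were under 5 in every array, and the highest Il13 value was 3.05. The 15 receptor constant region genes were named in 1 case and tested in none. In OVA lungs of KitWsh_MC against KitWsh mice, Itgal, an integrin of T cell homing, was lower by 1.46 ± 0.33 (SE), Cxcr3, a chemokine receptor, by 1.36 ± 0.38 (SE), the checkpoint gene Btla by 1.37 ± 0.33 (SE) and the transcription factor Ets1 by 0.55 ± 0.18 (SE). Tnfrsf9 was higher by 1.61 ± 0.51 (SE) in the same comparison. Thus 2 of 10 trafficking genes, 1 of 10 activation genes and 1 of 9 transcription factors were called lower, where 3.4% of all tested genes were, and 1 activation gene higher. Without the degraded array 16.6% of all genes were called lower.

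Markers of other blood cells were also measured. After OVA in KitWsh mice, 10 of 10 tested B cell markers and 10 of 10 pan-leukocyte genes had higher means, with medians of 0.95 and 0.76 and none called. The mean over the B cell markers ran from 7.14 to 7.36 in KitWsh PBS and from 7.68 to 8.87 in KitWsh OVA arrays. In OVA lungs the KitWsh_MC arrays ran from 7.34 to 7.95 on the same measure, and 8 of 10 B cell markers were lower than in KitWsh mice, none called. The counts averaged over the 5 kinds stand against the same 8.79% of all tested genes called higher. Of these lists, Cd72 and Cd79a rose among 10 B cell markers, 6 of 10 macrophage markers rose and 1 fell, and 3 of 10 pan-leukocyte genes rose. Of 9 natural killer and cytotoxic genes 1 rose, Nkg7, and 1 fell, Klra8. Of 7 dendritic cell markers 1 rose, Flt3, of 2 group 2 innate lymphoid markers none was called, and of 12 epithelial and endothelial markers 1 rose, Sftpd. A count of 1 in lists of this size is near the share over all genes. Without the degraded array 12.2% of all genes were called higher. Then 2 B cell markers rose and 1 fell, 2 dendritic cell markers rose and 1 fell, and 1 natural killer and cytotoxic gene rose and 2 fell. Of the epithelial and endothelial markers 1 rose and 1 fell, and the macrophage and pan-leukocyte counts were unchanged. The share called lower is not given. The part of other cell types in the T cell result was not tested.

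Arrays of a group that were high for T cell genes were also high for B cell markers. Over the 35 arrays other than the degraded one, deviations from group means correlated between the mean of the 22 T cell genes and that of the B cell markers with a Pearson r of 0.92 and a Spearman rho of 0.91. The adjusted permutation p values were 3e-05 and 4e-05 over the 12 lists compared, the unadjusted ones of 1e-05 being the smallest that 100000 permutations can give. Without the 2 arrays farthest from the median r was 0.89. For the further receptor signalling genes r was 0.95 and rho 0.87. The link was not limited to lymphocyte lists, as r was 0.76 for pan-leukocyte genes and 0.58 for dendritic cell markers. It was 0.91 for transcription factors, 0.87 for activation genes, 0.80 for trafficking genes, 0.77 for helper cytokines and 0.62 for natural killer and cytotoxic genes. These lists all had adjusted permutation p values under 0.05. For group 2 innate lymphoid markers r was 0.23. For macrophage markers r was 0.50 and rho 0.41, with adjusted permutation p values of 0.0803 each, and for epithelial and endothelial markers r was -0.44 and rho -0.47, with adjusted permutation p values of 0.0815 and 0.0405. All these values share the same arrays and the same normalisation.

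**Figure D4:**
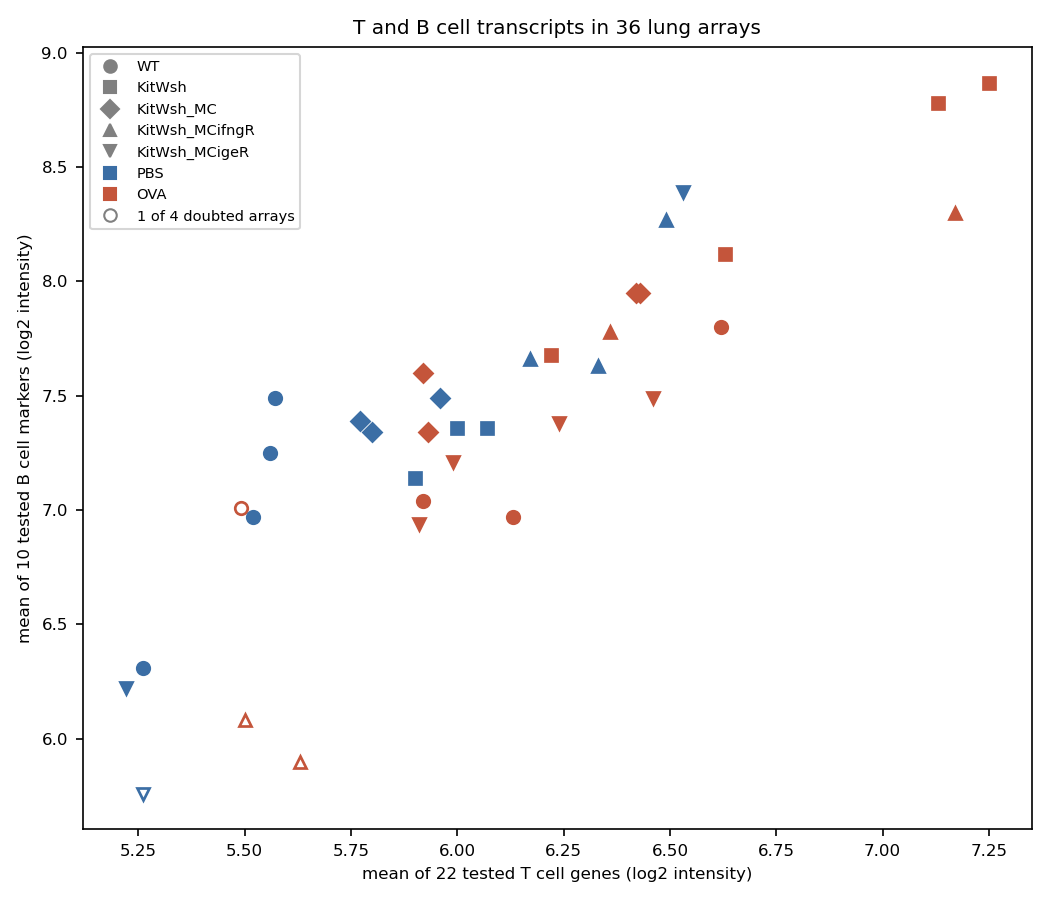
Mean log2 intensity of the 22 tested T cell genes (horizontal) against that of 10 tested B cell markers (vertical), 1 point per array, with shapes for the 5 kinds of mice, blue for PBS, red for OVA and open points for the 4 doubted arrays. The KitWsh OVA arrays reach 7.25 and 8.87, and the doubted arrays lie at the lower left.

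Within groups the members also followed each other, described here without a test. The median correlation between 2 tested members was 0.65 over 231 pairs in 35 arrays, and the median correlation of a tested gene outside the set with the mean of the members was 0.04. Cd3d, whose median correlation with the other members was 0.84, and Thy1, at 0.81, tracked the set most closely. Zap70 at 0.24, Lef1 at 0.28 and Cd8b1 at 0.28 followed it least. Over the 10 group means, the genes outside the set with the most similar pattern were Arhgap9 (r = 0.980), Ptpn22 (r = 0.978), Rhoh (r = 0.929), Cst7 (r = 0.924) and Rgs14 (r = 0.922).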

How the data were processed

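Lung RNA from 36 mouse samples was read on 1-colour Affymetrix mouse genome arrays. The deposited values are log2 intensities, and the submitters' processing notes name GCRMA. They were used as deposited and range from 2.19 to 15.9. Affymetrix control probe sets (64) were left out. Of 45101 probe sets, 34945 had 1 gene symbol in the platform annotation, 932 several and 9160 none, and only those with 1 symbol were used. Each gene took its probe set with the highest mean over 36 arrays.

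Genes above log2 5 in at least 3 arrays (11599 of 18193) were fitted in limma 3.58.1 (R 4.3.3) with lmFit and eBayes on 10 group means. P-values were adjusted by Benjamini-Hochberg over all 11599, with calls made at an adjusted p under 0.05. The script was tested on simulated data. Every member was accounted for. Values in every array were given for Cd3e, Cd4, Cd8a, Foxp3 and members called in any comparison of OVA with PBS in the fit of all 36 arrays, and at most 4 genes of each other list were named by smallest adjusted p. Genes named outside this rule, including Cd27, Zap70, Skap1, Gata3 and Il13, were chosen after their values were seen. Members, lists and the 4 arrays left out in some fits were chosen with earlier results of these data known. The alternatives were quantile normalization, median centring, no filter, averaging the probe sets of each gene, and leaving out arrays. The number of arrays limits the precision.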

Additional observations from a re-analysis of the deposited data

Results flagged for a closer look

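In groups of 4 arrays, 13 of 142 combinations of gene and group had 1 array far from the other 3 relative to the group's range. Chance alone gives such a gap in about 1 in 20 groups. In WT OVA lungs, Cd2 was 7.37 and Foxp3 2.34 in the array labelled replicate 4. In KitWsh OVA lungs, Ctla4 was 4.11 and Icos 5.49 in replicate 3, the lowest of their groups, and Foxp3 was 2.40 in replicate 4. In KitWsh_MC OVA lungs, Cd247 was 6.14 and Foxp3 2.35 in replicate 4, and Zap70 was 7.19 in replicate 2. In KitWsh_MCifngR OVA lungs, Cd6 was 6.52 and Il2rb 6.97 in replicate 4, the highest of their groups. In KitWsh_MCigeR OVA lungs, Cd3e was 7.07 and Tnfrsf4 5.52 in replicate 1, and Lef1 was 5.55 in replicate 3. The Foxp3 values lie close to the 2.25 of the other arrays, at the low end of its scale.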

How the results depend on the processing

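Without the 4 arrays that stand apart or go against their labels, the number of T cell genes called between OVA and PBS was 7 in WT, 7 in KitWsh and 16 averaged over the 5 kinds. It was 1 for the difference of response between KitWsh_MC and KitWsh, 1 for KitWsh minus WT and 11 for KitWsh_MC minus KitWsh in OVA lungs, 6 for KitWsh_MCifngR minus KitWsh_MC in OVA lungs and 3 for KitWsh minus WT in PBS lungs. Median centring gave 0 in WT and 1 in KitWsh_MC. No filter, over all 30 members, gave 0 in WT, 6 averaged over the 5 kinds and 2 for KitWsh_MC minus KitWsh in OVA lungs. Quantile normalization gave 1 in KitWsh_MCigeR, where it moved the median of all genes from 0.38 to 0.09, and 1 for KitWsh_MC minus KitWsh in OVA lungs. Leaving out 1 array gave 0 to 3 in WT, 0 to 5 in KitWsh, 1 to 2 in KitWsh_MC, 0 to 9 in KitWsh_MCigeR and 4 to 11 averaged over the 5 kinds. For differences of response it gave 0 to 1 for KitWsh_MC minus KitWsh and 0 to 5 for KitWsh_MCigeR minus KitWsh_MC. In OVA lungs it gave 0 to 6 for KitWsh_MC minus KitWsh and 0 to 1 for KitWsh_MCifngR minus KitWsh_MC, and in PBS lungs 0 to 2 for KitWsh minus WT. For median centring, no filter, quantile normalization and single arrays other than the degraded one, the share of all genes called is not given. Those counts show only how far they move. The cause of these changes was not tested. Among single genes, Ctla4, Cd5 and Il2rb kept their average call in 41 of 41 settings, Tnfrsf4 in 40 and Lat in 31, and Ctla4 kept its KitWsh_MC call in 13 of 13. Cd5 and Il2rb kept their WT calls in 6 of 14, and none of these genes changed direction. No paired analysis was possible because the numbers in the sample titles run through the whole series and pair no samples.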
